A study of Mus musculus with 90 samples.

Results

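The 8 genes described here are Ngfr, Sox9, Egfr, Tnc, Aqp1, Nes, Zeb1 and Zeb2, which are used in melanoma as markers of neural crest-like or dedifferentiated cells. They were taken by name from 18194 genes measured on arrays in 90 mouse melanomas. Each gene is represented by 1 probe set, the one that names a single gene and has the highest mean over all 90 arrays. All 8 genes were measured and none was removed by a filter.

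The tumours were subcutaneous melanoma allografts with the genotype label Hgftg;Cdk4R24C/R24C, a growth factor transgene with an altered cell cycle kinase, in strain B6.cBrd. All groups share this genotype and strain. Mice received an antibody against PD-L1 (anti-mouse PD-L1 mIgG1 D265A), the ligand through which tumours restrain T cells, a normal IgG control antibody or PBS. Each antibody was given at 10 mg/kg and PBS at 10 ml/kg by the sample titles, and the series text also names 20 mg/kg. Study 2 held 17 responders, 14 non-responders, 3 relapses, 2 growth delays, 14 IgG and 3 PBS tumours. Study 3 held 10 responders, 9 non-responders, 3 relapses, 3 stabilizations, 8 IgG and 4 PBS tumours. A responder lost at least 5% of its volume under anti-PD-L1, and a non-responder kept growing and was collected at a matched time. A relapse had regressed below a measurable size and regrown under treatment. A stabilization was a responder of steady volume, and a growth delay was a tumour that formed only after treatment. Animal age and whether the grafts derive from 1 donor tumour are not given in the sources used here.

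Melanocytes arise from the neural crest, a migratory embryonic population that also gives rise to Schwann cells and parts of the craniofacial skeleton. Melanoma cells can lose pigment genes such as Pmel, which encodes the fibril protein of melanosomes, and gain crest or mesenchymal genes, a shift called dedifferentiation or phenotype switching. Several of these genes are also active in fibroblasts, blood vessel walls or Schwann cells, so whole tumour RNA mixes sources. In such bulk samples a change in the number of cells of a type and a change in RNA per cell cannot be told apart.

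The array values are on the log2 scale, so a difference of 1 is a doubling, and they run from 2.19 to 14.84. Array medians lie between 5.71 and 5.90. An array gives no read counts, and the number of tumours limits the precision. The disease label, melanoma, was checked with 16 measured melanocyte genes, whose mean per tumour lay between 9.22 and 10.41 in 85 tumours. In the other 5 it was 8.81 or less. These are study 2 non-responder replicate 14, study 3 responder replicates 3 and 4, and study 3 stabilization replicates 1 and 2, called the melanocyte-low tumours below. They had high values of several members, so results are given with and without them. Study 2 non-responder replicate 14 and study 3 responder replicate 3 had mean B cell gene values of 10.53 and 10.83. The next highest was 8.04, in study 3 relapse replicate 3. Study 3 responder replicate 4 and stabilization replicates 1 and 2 had 6.64, 6.90 and 6.58. That responder replicate 4 had the highest skeletal muscle mean of any tumour, 13.46. Whether other tissue in the sample lowered the melanocyte values was not tested. The 3 prime to 5 prime difference of control probe sets, a sign of RNA degradation, lay between -0.11 and 0.93 in 89 arrays and at 5.20 in study 3 PBS replicate 2.

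Regressing tumours carried more transcript of the 2 ZEB factors, on their brightest probe sets, than growing tumours under the same antibody. The nerve growth factor receptor gene Ngfr was higher on its brightest probe set but lower on its other 2. The matrix gene Tnc was higher too, close to the threshold. Averaged over both studies, 4 of 8 members passed and all 4 were higher in responders (limma, adjusted p under 0.05; 17 and 10 responders against 14 and 9 non-responders). The background is high, since 51.2% of all genes passed, 18.9% of them upward and 32.3% downward in percent of all genes. The median difference was 0.33 over the 8 members and -0.06 over all genes. With the melanocyte-low tumours left out 3 members passed, where 47.1% of all genes did.

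Ngfr encodes p75, a low-affinity neurotrophin receptor of neural crest stem cells and of invasive melanoma cells. In study 2 it ran from 5.34 to 6.32 in responders with a median of 5.71, and from 5.21 to 6.02 in non-responders with a median of 5.63. In study 3 it ran from 5.61 to 6.52 in responders with a median of 5.79, and from 5.42 to 6.14 in non-responders with a median of 5.63. The ranges overlapped in both studies. Ngfr was higher in responders by 0.22 ± 0.09 (SE), 1.16-fold, with an adjusted p of 0.0276. It was higher by 0.19 without the melanocyte-low tumours (adjusted p = 0.0282). Its probe set is dim, at the 40.7th percentile of all probe sets by mean, and the other 2 Ngfr probe sets fell, as described with the probe sets below.

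Egfr, the epidermal growth factor receptor, which rises in some melanomas that lose pigment genes, showed no such difference on its brightest probe set. Study 2 responders ran from 7.27 to 7.91 with a median of 7.52, and non-responders from 7.37 to 7.94 with a median of 7.56. Study 3 responders ran from 7.48 to 8.20 (median 7.75) and non-responders from 7.65 to 8.39 (median 7.77). The difference was -0.06 ± 0.06 (SE; adjusted p = 0.405).

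Zeb1 and Zeb2 are zinc finger repressors of E-cadherin. In melanocytes Zeb2 acts with the pigment programme, and a switch from Zeb2 to Zeb1 is described in invasive melanoma cells. Here both were higher in responders on their brightest probe sets. Zeb1 ran from 6.99 to 9.34 in study 2 responders (median 7.82) and from 6.76 to 9.30 in non-responders (median 7.42). The 9.30 belongs to the melanocyte-low non-responder, and the other 13 non-responders were at or below 7.60. In study 3 Zeb1 ran from 6.99 to 10.32 in responders (median 7.81), with the melanocyte-low responders at 9.64 and 10.32, and from 6.46 to 7.34 in non-responders (median 6.96). The difference was 0.77 ± 0.19 (SE), 1.70-fold, with an adjusted p of 0.00115. It was 0.60 ± 0.14 with the melanocyte-low tumours left out (adjusted p = 0.000674).

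Zeb2 ran from 9.27 to 10.41 in study 2 responders (median 9.92) and from 7.84 to 10.35 in non-responders (median 9.32). In study 3 it ran from 8.16 to 10.47 in responders (median 9.96) and from 8.90 to 9.79 in non-responders (median 9.31). The lowest study 3 responder, at 8.16, was melanocyte-low replicate 4, which had the highest Zeb1 value of all 90 tumours, and the other melanocyte-low tumours had Zeb2 between 10.05 and 10.67. Zeb2 was higher in responders by 0.46 ± 0.14 (SE), 1.37-fold (adjusted p = 0.0055), and by 0.54 ± 0.13 without the melanocyte-low tumours (adjusted p = 0.000810). Sox9, a crest and cartilage transcription factor, did not pass. It ran from 5.34 to 6.07 in study 2 responders (median 5.73) and from 5.60 to 6.26 in non-responders (median 5.76). Study 3 responders ran from 5.56 to 6.54 (median 5.76) and non-responders from 5.57 to 5.97 (median 5.73). The mean difference was -0.0039 ± 0.0598 (SE; adjusted p = 0.961).

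Tnc encodes tenascin C, a matrix glycoprotein of wounds, tumour stroma and the embryonic crest pathway. Study 2 responders ran from 5.25 to 11.48 (median 7.95) and non-responders from 5.23 to 9.84 (median 7.24). Study 3 responders ran from 7.37 to 12.01 (median 8.24) and non-responders from 6.61 to 8.39 (median 7.65). Tnc was the most variable member within groups, with a pooled SD of 1.27 against 0.20 for Egfr. The difference was 0.84 ± 0.36 (SE), 1.79-fold, close to the threshold (adjusted p = 0.0467). It no longer passed without the melanocyte-low tumours, at 0.70 ± 0.35 (adjusted p = 0.0869), or when the same probe set was adjusted over all 34958 probe sets with 1 symbol in place of 1 per gene (adjusted p = 0.0516).

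Aqp1 encodes the water channel aquaporin 1, found on capillary and venule endothelium and used as a crest-like melanoma marker. Study 2 responders ran from 6.35 to 8.95 (median 7.08) and non-responders from 6.18 to 10.13 (median 7.31). Study 3 responders ran from 6.07 to 10.57 (median 7.75) and non-responders from 6.39 to 7.83 (median 7.01). Both 10.13 and 10.57 belong to melanocyte-low tumours. The difference averaged over studies was 0.44 ± 0.25 (SE) and did not pass (adjusted p = 0.127). Nes encodes nestin, an intermediate filament protein of neural progenitors, pericytes and proliferating endothelium. It ran from 7.35 to 8.41 in study 2 responders and from 7.31 to 8.16 in non-responders, with medians of 7.93 and 7.88. In study 3 it ran from 7.29 to 8.52 in responders and from 7.49 to 8.04 in non-responders, with medians of 7.73 and 7.79. Its difference of 0.10 ± 0.08 (SE) did not pass (adjusted p = 0.295).

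**Figure D1:**
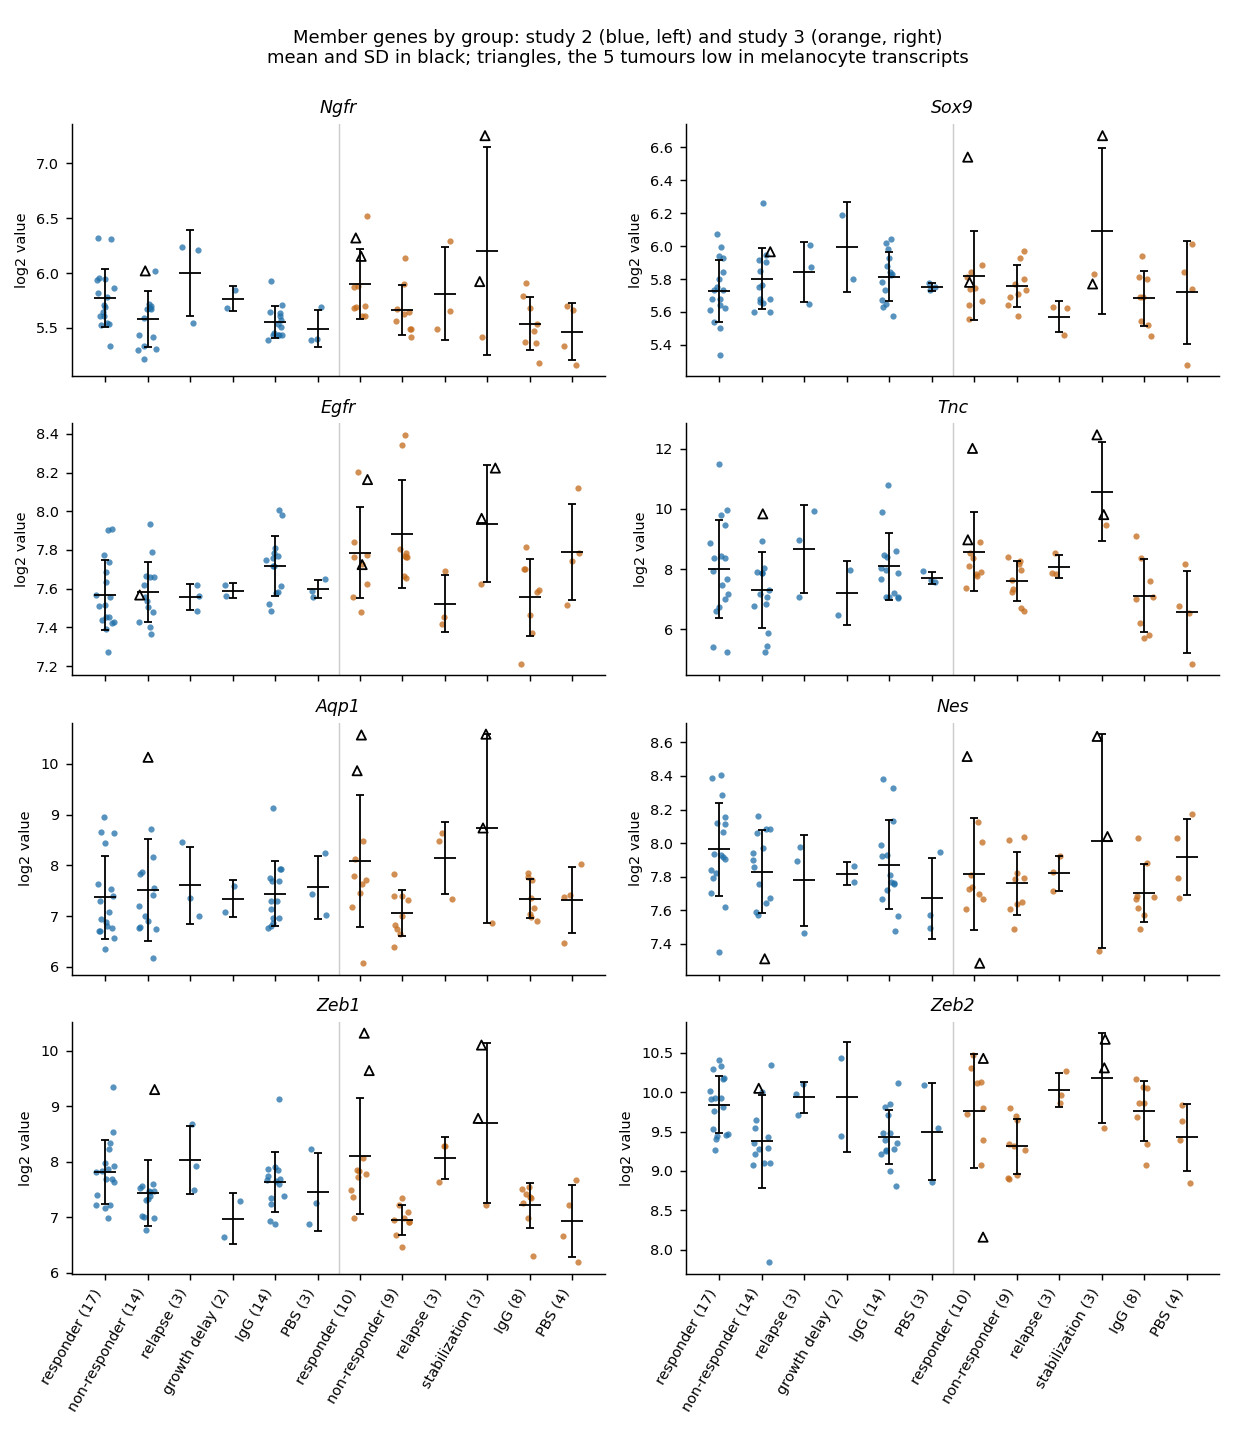
Log2 value of each member gene (y axis, scales differ between genes) in every tumour by group (x axis, number of tumours in brackets), study 2 in blue and study 3 in orange, with mean and SD in black and the 5 melanocyte-low tumours as triangles. Stabilization has the highest mean for each gene, and its Zeb1 values run from 7.23 to 10.10, wider than those of any other group of 3.

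Tnc and Aqp1 varied together with Zeb1 across tumours, as described below, and their promoters are shown with CACCTG, the E-box that ZEB factors bind, in capitals. Whether ZEB factors act at these promoters was not tested. The sequences are from RefSeq on GRCm38.p6 and run from 250 bases before to 50 bases after an annotated start. The Tnc promoter shown, on the minus strand at chr4:64046887-64047186, has no match, nor has another annotated Tnc promoter at chr4:64046966-64047265. The Aqp1 promoter, on the plus strand at chr6:55336049-55336348, has 1.
Aqp1: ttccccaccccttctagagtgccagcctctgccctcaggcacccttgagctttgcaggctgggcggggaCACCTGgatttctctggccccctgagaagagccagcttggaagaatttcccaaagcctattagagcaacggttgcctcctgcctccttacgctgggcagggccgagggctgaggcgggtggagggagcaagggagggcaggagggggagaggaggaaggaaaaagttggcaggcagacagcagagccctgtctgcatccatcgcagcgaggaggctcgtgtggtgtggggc
Tnc: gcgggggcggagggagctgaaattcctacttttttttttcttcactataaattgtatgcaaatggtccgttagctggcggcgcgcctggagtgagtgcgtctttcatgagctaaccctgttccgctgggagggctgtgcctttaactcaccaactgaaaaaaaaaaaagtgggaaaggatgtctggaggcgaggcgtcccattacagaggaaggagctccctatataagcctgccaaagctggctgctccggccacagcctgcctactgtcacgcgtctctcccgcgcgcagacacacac
The motifs searched on both strands were CACCTG, whose other strand reads CAGGTG, and CATGTG, the E-box of the pigment regulator MITF, whose other strand reads CACATG. These words all differ, so no position counts for both motifs. For Ngfr, Egfr, Tnc, Aqp1, Nes and Zeb2 the table held 10 promoters in all, of which 1 holds CACCTG and 0 hold CATGTG. Over 32851 mouse promoters of the same length 20.2% hold CACCTG and 14.2% hold CATGTG.

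The studies did not give the same members on their own, but no difference between them passed. Within study 2, 0 of 8 members passed (2.63% of all genes by limma, 4837 genes at an unadjusted p under 0.05), with Zeb2 at 0.46 ± 0.17 (SE; adjusted p = 0.0889) and Zeb1 at 0.38 ± 0.23 (adjusted p = 0.267). Without the single melanocyte-low non-responder in that study, as part of leaving out all 5, Zeb1 and Zeb2 both passed at 0.52 (adjusted p 0.0218 and 0.0138), where 24.9% of all genes passed. In study 3 alone, 2 members passed (36.7% of all genes, 14.4% higher), Zeb1 at 1.15 ± 0.29 (SE; adjusted p = 0.00335) and Aqp1 at 1.02 ± 0.39 (adjusted p = 0.0337). Without its melanocyte-low tumours Zeb1 alone passed, at 0.69 ± 0.22 (adjusted p = 0.0327; 12.5% of all genes), and Aqp1 was at 0.49. The difference between studies passed for 0 members and 0% of genes by limma, with 2418 genes at an unadjusted p under 0.05. Its largest member value was 1.17 ± 0.50 for Aqp1 (adjusted p = 0.345). In neither study did a member separate responders from non-responders without overlap, which 0% of all genes did in study 2 and 0.682% in study 3.

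Relapse tumours had more Zeb1 and Zeb2 transcript than non-responders. Zeb1 in the relapse tumours was 7.92, 7.49 and 8.69 in study 2 and 8.28, 7.63 and 8.28 in study 3. Zeb2 was 9.98, 9.71 and 10.10 in study 2 and 9.96, 9.86 and 10.27 in study 3. In study 3 all 3 relapses lay above all 9 non-responders for both genes, a separation that 20.3% of all genes showed, and in study 2 no member did so (0.451% of all genes). Against non-responders 2 members passed (24% of all genes, 9.96% higher), Zeb1 at 0.85 ± 0.29 (SE), 1.81-fold (adjusted p = 0.0332), and Zeb2 at 0.64 ± 0.21, 1.55-fold (adjusted p = 0.0309). Neither passed when study 2 relapse replicate 1 or 3, or study 3 relapse replicate 1 or 3, was left out, where Zeb1 lay between 0.69 and 0.88 and Zeb2 between 0.58 and 0.65. Without the melanocyte-low tumours, none of which is a relapse, Ngfr passed as well, at 0.30 (adjusted p = 0.0293; 41.3% of all genes). Against responders 0 members and 0% of genes passed by limma (962 genes at an unadjusted p under 0.05), and Zeb1 differed by 0.09 ± 0.29 (SE). Against IgG 0 members passed (1.09% of all genes; 5851 at an unadjusted p under 0.05). Ngfr and Zeb1 passed there without the melanocyte-low tumours, at 0.36 and 0.63 (adjusted p 0.0335 and 0.0423; 14.1% of all genes).

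Stabilization tumours, found in study 3 alone, had the highest mean of all 12 groups for each of the 8 members. The values of the 3 tumours were 12.46, 9.81 and 9.46 for Tnc, and 10.10, 8.78 and 7.23 for Zeb1. They were 10.59, 8.74 and 6.87 for Aqp1, and 7.25, 5.92 and 5.42 for Ngfr. The first 2 of these tumours are melanocyte-low, and the third lay within the range of the non-responders for Zeb1, Aqp1 and Ngfr. Tnc alone separated all 3 from all 9 non-responders, as did 5.66% of all genes. Against non-responders 5 members passed (31.3% of all genes, 13.3% higher), with Tnc at 2.99 ± 0.83 (SE), 7.93-fold (adjusted p = 0.00628), Zeb1 at 1.75 ± 0.43 (adjusted p = 0.00285) and Aqp1 at 1.67 ± 0.57 (adjusted p = 0.0209). Zeb2 was higher by 0.86 ± 0.31 and Ngfr by 0.54 ± 0.19. Without the melanocyte-low tumours 1 stabilization tumour is left, assumed to vary like the other groups, and 0 members passed (0.0055% of all genes, 1 gene). Without stabilization replicate 1 alone 0 members passed as well, and the share of all genes in that setting is not given here. Against responders 0 members passed (0.11% of all genes, 20 genes by limma; 1420 at an unadjusted p under 0.05), and Tnc differed by 2.00 ± 0.82 (SE; adjusted p = 0.495).

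Against the IgG control, responders had higher Ngfr, by 0.29 ± 0.09 (SE; adjusted p = 0.0083), and higher Zeb1, by 0.54 ± 0.19 (adjusted p = 0.0232). IgG tumours had Ngfr from 5.39 to 5.93 in study 2 and from 5.18 to 5.91 in study 3, overlapping the responders. With the mean of its 3 probe sets Ngfr was at 0.058 and did not pass (adjusted p = 0.303). These 2 members compare with 35.4% of all genes, 15.3% higher. Without the melanocyte-low tumours Ngfr passed at 0.25 (adjusted p = 0.0133) and Zeb1 did not, at 0.30 (adjusted p = 0.104), where 21.4% of all genes passed. The titles of IgG and anti-PD-L1 tumours carry numbers from different blocks, adjoining in study 2 and far apart in study 3. The titles do not say what these numbers stand for. A cohort difference, if the blocks mark cohorts, cannot be told apart from treatment. PBS tumours have a block of their own in both studies, so the same limit holds for IgG against PBS. Responders and non-responders were both compared with the same IgG tumours. Non-responders differed from IgG in 0 members (0.0055% of all genes, 1 gene by limma; 1101 at an unadjusted p under 0.05), with Zeb1 at -0.23 ± 0.20 (SE) and Zeb2 at -0.25 ± 0.14. Growth delay tumours had Zeb1 at 6.64 and 7.30 and Tnc at 6.47 and 7.97, and 0 members and 0% of genes passed against IgG by limma (989 genes at an unadjusted p under 0.05). IgG and PBS tumours differed in 0 members (0.0055% of all genes; 1185 at an unadjusted p under 0.05).

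**Figure D2:**
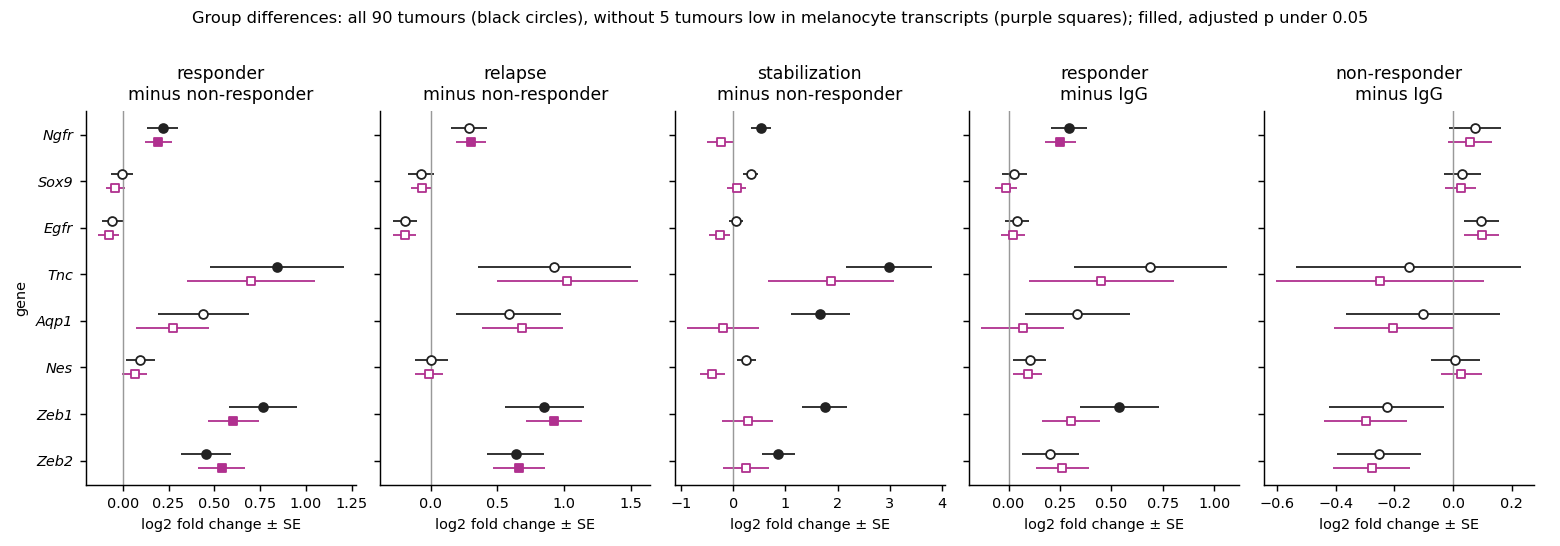
Log2 fold change ± SE (x axis, scales differ between panels) of each member (y axis) in 5 comparisons, with all 90 tumours as black circles and without the 5 melanocyte-low tumours as purple squares, filled where the adjusted p is under 0.05. The squares of Zeb1 and Zeb2 stay filled against non-responders for responders and relapses, and no square is filled for stabilization.

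Ordered by mean, the 12 groups formed a near continuous series for every member. This order sets levels of both studies side by side, and the sources used here do not say if the studies were normalized as one set. Of the 11 steps between neighbouring groups, 1 exceeded the larger SD of the pair for Tnc, between stabilization (10.58 ± 1.64 SD, n = 3) and study 2 relapse (8.66 ± 1.45, n = 3), and 0 did so for the other members. The span from highest to lowest group mean was 4.01 for Tnc, 1.77 for Zeb1, 1.67 for Aqp1 and 0.86 for Zeb2. It was 0.73 for Ngfr, 0.52 for Sox9, 0.41 for Egfr and 0.34 for Nes. For Zeb1 the 5 highest means were those of stabilization, study 3 responder, study 3 relapse, study 2 relapse and study 2 responder, in that order. For Zeb2 study 2 growth delay was the third at 9.94 ± 0.69 (SD, n = 2), and study 3 IgG (9.76 ± 0.38, n = 8) and study 3 responder (9.76 ± 0.72, n = 10) lay side by side.

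The relation to pigment was asked within groups, as the change in a gene for each log2 unit of Pmel across tumours of the same group. Pmel itself was lower in responders than in non-responders, by 1.03 on the log2 scale (-1.03 ± 0.31, SE; adjusted p = 0.00586). Of the 8 members 5 had a slope that passed, all negative (limma over 18193 genes; 54.7% of all genes passed, 23.2% with a negative slope). The slopes were -0.42 ± 0.05 (SE) for Zeb1, -0.54 ± 0.07 for Aqp1, -0.56 ± 0.11 for Tnc, -0.12 ± 0.03 for Ngfr and -0.08 ± 0.02 for Sox9 (adjusted p 2.97e-12, 5.19e-11, 2.02e-05, 9.10e-05 and 0.000413). For Ngfr this slope depends on the probe set. Of the other 2 sets 1 did not pass, at -0.017, and 1 passed in the other direction, at 0.06 ± 0.02 (SE; adjusted p = 0.0160), and the mean of all 3 was at -0.028 (adjusted p = 0.122). The slopes of Egfr (-0.04, adjusted p = 0.0611), Nes (-0.06, adjusted p = 0.0670) and Zeb2 (-0.01, adjusted p = 0.872) did not pass. These too depend on the probe set. Over all probe sets, 1 Nes set (-0.08, adjusted p = 0.00942), 1 Zeb2 set (-0.13, adjusted p = 0.00409) and 3 Egfr sets passed with a negative slope. For Zeb1 3 sets passed as negative and 1 as positive, at 0.05 (adjusted p = 0.0321). The difference between the slopes of Zeb1 and Zeb2, both higher in responders, was not tested.

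Much of this rested on the melanocyte-low tumours. Their Pmel values were 8.42 in study 2 non-responder replicate 14, 5.91 and 6.65 in study 3 responder replicates 3 and 4, and 6.31 and 8.97 in stabilization replicates 1 and 2. Zeb1 in the same tumours was 9.30, 9.64, 10.32, 10.10 and 8.78, all above the study 3 range of non-responders. Without them 2 members passed (16.6% of all genes, 9.04% with a negative slope), Tnc at -0.70 ± 0.23 (SE; adjusted p = 0.0227) and Nes at -0.14 ± 0.05 (adjusted p = 0.0228). The other 2 Nes probe sets did not pass there, at -0.09 and -0.06 (adjusted p 0.271 and 0.632). For Tnc the direction turned between the studies in these tumours, at -0.97 ± 0.27 (SE; adjusted p = 0.00875) in study 2 and 0.37 ± 0.39 (adjusted p = 0.599) in study 3. Zeb1 (-0.23, adjusted p = 0.0813) and Aqp1 (-0.34, adjusted p = 0.0646) did not pass without the melanocyte-low tumours. In IgG and PBS tumours alone, where Pmel varies little, 0 members passed and the Zeb1 slope was 0.01. The share of all genes in that setting is not given here. Over the alternatives the number of genes with a passing slope fell as low as 7, so no conclusion about the members is drawn from this 0. The difference in slope passed for 0 members between the studies (492 genes by limma) and for 0 members between anti-PD-L1 and control tumours (0 genes by limma).

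Correlations with Pmel were also taken over all tumours of 1 study. Group means were not subtracted there, so these values include differences between groups. Zeb1 and Pmel had a Pearson r of -0.867 and a Spearman rho of -0.507 in study 3 (n = 37; permutation p 1e-05, the smallest that 100000 permutations allow, and 0.00148; adjusted 5.04e-05 and 0.00478 over 126 relations). Without the 2 tumours farthest in Pmel r was -0.793, and without the 4 melanocyte-low tumours of that study it was -0.402 (n = 33; permutation p = 0.0201, adjusted 0.0517). In study 2 r was -0.527 and rho -0.290 (n = 53; permutation p 0.00016 and 0.0354, adjusted 0.000806 and 0.0858), and r was -0.378 without the 2 farthest tumours. Aqp1 had an r of -0.836 and a rho of -0.394 in study 3 (permutation p 1e-05 and 0.0162, adjusted 5.04e-05 and 0.0324), -0.657 without the 2 farthest and -0.264 without the 4 melanocyte-low tumours (adjusted permutation p = 0.250). In study 2 Aqp1 had -0.462 and -0.186 (permutation p 0.00084 and 0.183, adjusted 0.00294 and 0.296), and -0.192 without the 2 farthest, so this relation rests on those tumours. Nes in study 2 had an r of -0.257 and a rho of -0.310 (permutation p 0.0642 and 0.0243, adjusted 0.111 and 0.0637). Without the melanocyte-low non-responder, whose Nes value of 7.31 was the lowest of its group, r was -0.515 and rho -0.387 (n = 52; permutation p 0.00015 and 0.00498, adjusted 0.000787 and 0.0216), and r was -0.368 without the 2 farthest. In study 3 without the melanocyte-low tumours the r of Nes was 0.0373 (n = 33; permutation p = 0.836, adjusted 0.878).

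**Figure D3:**
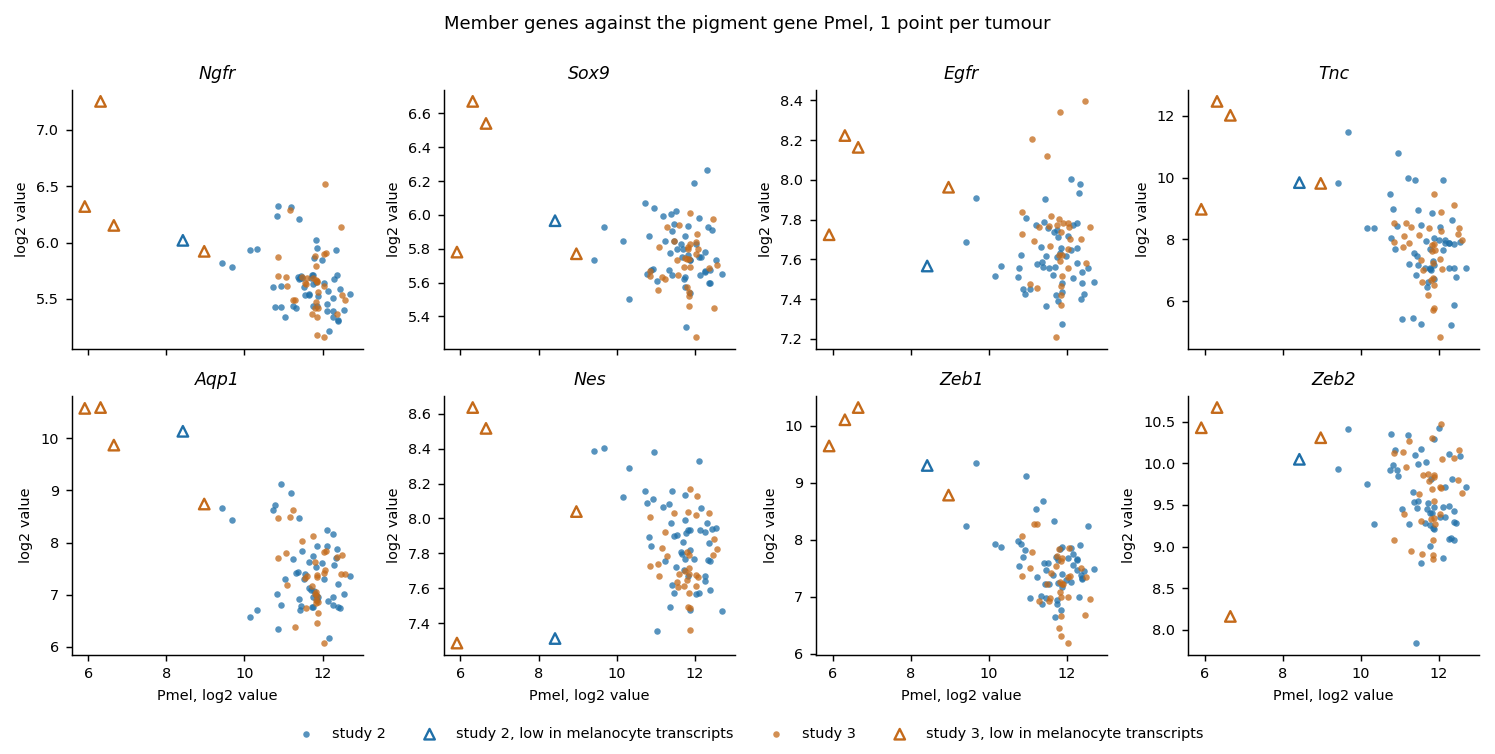
Log2 value of each member (y axis, scales differ) against Pmel (x axis, log2 value), 1 point per tumour, study 2 in blue, study 3 in orange and the melanocyte-low tumours as open triangles. The triangles for Zeb1 and Aqp1 sit at low Pmel and high member values, while for Nes they fall at both ends, from 7.29 to 8.64.

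Across tumours, with group means subtracted, the members tended to vary together. Of 28 pairs, 27 had a positive r, with a median of 0.391 and a range from -0.0430 to 0.752 (n = 90). The tightest pairs were Tnc with Zeb1, r 0.752 and rho 0.713, Zeb1 with Aqp1, 0.707 and 0.490, and Tnc with Aqp1, 0.605 and 0.519 (permutation p of 1e-05 and adjusted p of 5.04e-05 for each r). Without the 2 farthest tumours these r were 0.702, 0.642 and 0.545. Within 1 study group means were not subtracted, and these r were 0.795, 0.571 and 0.573 in study 2 and 0.804, 0.850 and 0.688 in study 3. With group means subtracted and the melanocyte-low tumours left out, the median over the 28 pairs was 0.307 and the highest 0.728 (n = 85). Zeb1 and Zeb2 had an r of 0.250 and a rho of 0.421 (permutation p 0.0584 and 0.00017, adjusted 0.0827 and 0.000669), and an r of 0.475 without the 2 farthest tumours.

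These members also varied with markers of stromal and vascular cells. With group means subtracted, Tnc and the mean of 10 fibroblast genes had an r of 0.885 and a rho of 0.880 over 90 tumours, and an r of 0.877 without the melanocyte-low tumours. Zeb1 and the mean of 8 endothelial genes had 0.852 and 0.703, and an r of 0.750 without those tumours. For Aqp1 and the endothelial mean the values were 0.822 and 0.677, and 0.732 without them (permutation p of 1e-05 for each of these 3 relations, adjusted 5.04e-05 for r). Without the 2 farthest tumours the 3 values of r were 0.879, 0.811 and 0.811. Nes had an r of 0.540 with the pericyte and 0.516 with the endothelial mean (rho 0.489 and 0.499, adjusted permutation p of 7.64e-05 for each r), and 0.614 and 0.634 without the melanocyte-low tumours. Within 1 study group means were not subtracted. There the r of Tnc with fibroblast genes was 0.910 (rho 0.898) in study 2 and 0.888 (rho 0.836) in study 3. For the endothelial mean it was 0.828 and 0.912 with Zeb1 and 0.770 and 0.895 with Aqp1, in study 2 and study 3. With group means subtracted again, Ngfr, Sox9, Egfr and Zeb2 had r between 0.268 and 0.462 with the fibroblast mean. The r of the members with the mean of 7 Schwann cell genes ran from -0.264 to 0.282.

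Genes of several cell type lists were higher in responders. All 10 fibroblast genes, 9 of 10 macrophage genes, 3 of 8 endothelial genes and 3 of 7 pericyte genes passed as higher in responders, as did 18.9% of all genes, and 0 were lower. Of the pericyte genes 1 passed without the melanocyte-low tumours, while the other 3 counts did not change. The 6 measured T cell genes, 4 of 6 adipocyte genes and 2 of 5 B cell genes were also higher. The fibroblast mean was 9.28 ± 1.31 (SD, n = 17; range 6.81 to 12.08) in study 2 responders against 8.44 ± 1.24 (n = 14; 6.23 to 11.38) in non-responders. The study 3 responders had 10.57 ± 0.92 (n = 10; 9.03 to 12.42) and the non-responders 9.17 ± 0.55 (n = 9; 7.88 to 9.68). With the fibroblast mean as a covariate, chosen in the knowledge of these data, 0 of 8 members passed between responders and non-responders, where 889 genes did (4.89%). Zeb1 was then at 0.23, Zeb2 at 0.32 and Tnc at -0.36. With the macrophage mean, added later, 0 members and 0 genes passed, and with the endothelial mean 1 member passed, Zeb1 at 0.35, as did 17.6% of all genes. On Pmel, 3 members kept a negative slope that passed with the fibroblast mean in the fit, Zeb1 at -0.25, Aqp1 at -0.33 and Ngfr at -0.09, where 35.2% of all genes passed, and Tnc was at -0.05. With that covariate and without the melanocyte-low tumours 0 members passed (6.94% of all genes by limma), and Zeb1 was at -0.01. Which cells carried these transcripts was not tested.

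**Figure D4:**
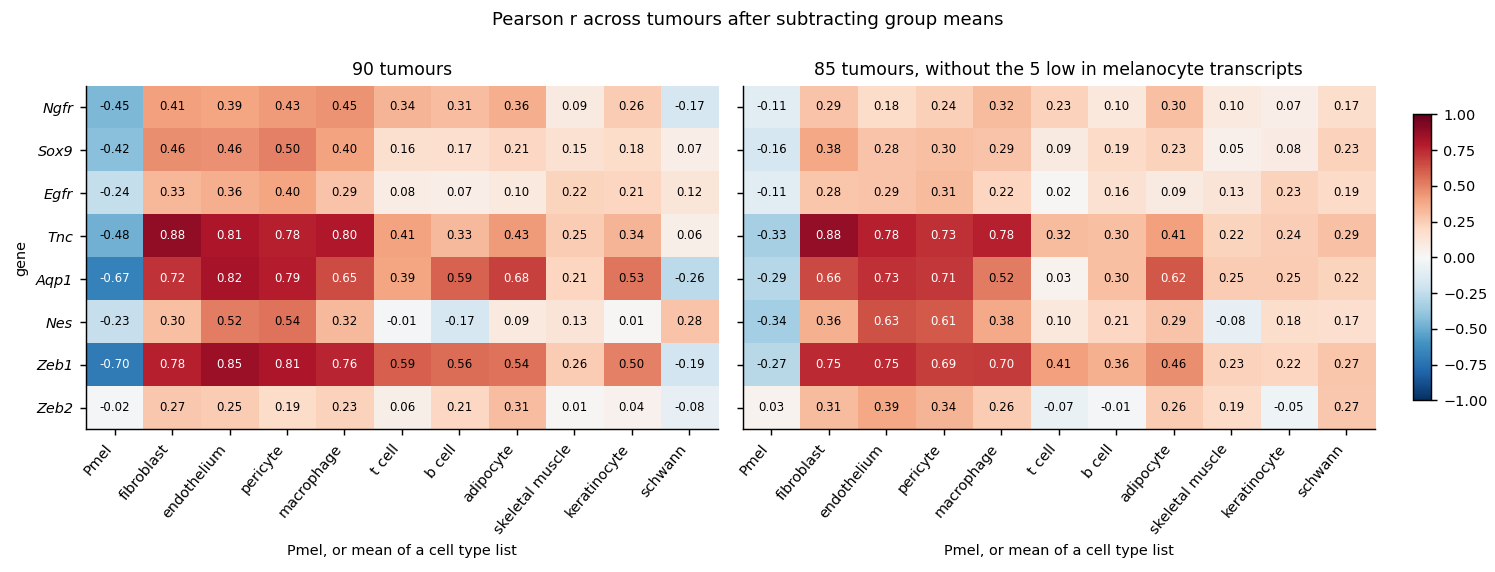
Pearson r, after subtracting group means, of each member (y axis) with Pmel and with the mean of each cell type list (x axis), over 90 tumours (left) and 85 tumours without the melanocyte-low ones (right), from -1 in blue to 1 in red. Tnc, Aqp1 and Zeb1 are red against fibroblast, endothelium, pericyte and macrophage lists in both panels.

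Other genes of the same programmes did not move as a block. Of 18 neural crest transcription factors and regulators 3 were higher in responders, 1 was lower and 14 did not pass, with a median of 0.00 (18.9% of all genes were higher and 32.3% lower). Twist1, a mesenchymal factor, was higher by 0.55 ± 0.16 (SE; adjusted p = 0.00460) and Id2, an inhibitor of helix-loop-helix factors, by 0.35 ± 0.11 (adjusted p = 0.00628). Msx1, a homeobox factor of the crest border, was lower by 0.12, at -0.12 ± 0.04 (adjusted p = 0.0179). Of 11 genes of the neural crest-like melanoma state 0 were higher and 1 was lower, Cdh19, a cadherin of crest derivatives, at -0.65 ± 0.23 (adjusted p = 0.0179). Ret and Ncam1 did not pass, at -0.13 ± 0.06 and 0.30 ± 0.16. Of 23 genes of the undifferentiated melanoma state 21 were measured, and 7 were higher, 3 lower and 11 did not pass. Tgfbi, a matrix protein induced by TGF-beta, was higher by 1.08 ± 0.24 (adjusted p = 0.000443), Axl, a receptor kinase also found on macrophages, by 0.78 ± 0.14 (adjusted p = 6.97e-05) and the filament gene Vim by 0.25 ± 0.06 (adjusted p = 0.00130).

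On Pmel, genes grouped as neural crest and dedifferentiation markers had slopes of both signs, many of which did not pass without the melanocyte-low tumours. Of the 18 crest regulators 9 had a positive slope that passed, as did 31.5% of all genes, and 5 a negative one, and without the melanocyte-low tumours these counts were 3 and 4. Pax3, a factor of crest and melanoblasts, and Foxd3, a factor of the early crest, rose with Pmel by 0.80 ± 0.05 and 0.39 ± 0.03 (SE; adjusted p 1.13e-23 and 9.35e-18). Tfap2a rose by 0.46 ± 0.04 (adjusted p = 7.18e-16). Twist1 fell with Pmel, at -0.33 ± 0.04 (adjusted p = 4.07e-10), and still did so without the melanocyte-low tumours (-0.34, adjusted p = 0.00197). Without those tumours Pax3 was at 0.17 (adjusted p = 0.00483), while Foxd3 and Tfap2a did not pass, at 0.10 each. In the crest-like list 3 slopes were positive, among them Cdh19 at 0.63 ± 0.05 and Erbb3, a neuregulin receptor, at 0.33 ± 0.04, and 3 negative, among them Ncam1 at -0.28 ± 0.05. Leaving out the melanocyte-low tumours, Cdh19 was at 0.15 (adjusted p = 0.114) and Erbb3 at -0.0086 (adjusted p = 0.954), and the counts were 0 positive and 1 negative, Ncam1 at -0.25 (adjusted p = 0.0367). In the undifferentiated list 2 were positive, Cdh2 at 0.39 ± 0.04 and Vegfc at 0.33 ± 0.03, and 6 negative, with Tgfbi at -0.40 ± 0.07. With those tumours left out the counts were 0 and 4, with Cdh2 at 0.15 (adjusted p = 0.0913), Vegfc at 0.049 (adjusted p = 0.624) and Tgfbi at -0.55 (adjusted p = 0.00380). Of 15 other melanocyte genes 14 had a positive slope that passed, and Tyr did not, at 0.01 (adjusted p = 0.635).

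The choice of probe set mattered for some members. Zeb2 has 5 probe sets and all 5 were higher in responders, by 0.20 to 0.53. Zeb1 has 4, of which 2 were higher, by 0.77 and 0.47, and 2 did not pass. Without the melanocyte-low tumours the first 2 stayed higher, by 0.60 and 0.33 (adjusted p 0.000826 and 0.00262). Of the other Zeb1 sets 1 was then lower, at -0.12 (adjusted p = 0.0203). Ngfr has 3, and beside the brightest at 0.22 the other 2 were lower in responders, at -0.16 ± 0.05 and -0.19 ± 0.06 (SE; adjusted p 0.0132 and 0.00771). With the mean of all 3 the difference was -0.043, so the direction of Ngfr depends on the probe set. Sox9 and Nes have 3 each, Tnc has 2 and Aqp1 has 1, and none passed in this fit over all single-symbol probe sets.

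Egfr has 7 probe sets with opposite results, singled out after their values were seen. The brightest, at -0.06, did not pass, while 1435888_at was higher in responders by 0.88 ± 0.27 (SE; adjusted p = 0.00730) and 1424932_at by 0.73 ± 0.24 (adjusted p = 0.0106), and 2 others were lower. On 1435888_at study 3 responders ran from 5.49 to 9.61 with a median of 6.68, and non-responders from 4.82 to 6.39 with a median of 5.78. Study 2 responders ran from 4.88 to 9.01 (median 5.56) and non-responders from 5.00 to 8.01 (median 5.42), so both pairs overlapped. This probe set was higher without the melanocyte-low tumours too, by 0.72 (adjusted p = 0.0102). Its slope on Pmel was -0.58 ± 0.07 (SE; adjusted p = 2.90e-11), and -0.62 without those tumours (adjusted p = 0.000921). It had an r of 0.880 with the fibroblast mean and 0.884 with the endothelial mean after group means were subtracted, against 0.328 and 0.365 for the brightest Egfr probe set. The probe sequences and the transcripts each set detects were not analysed here.

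**Figure D5:**
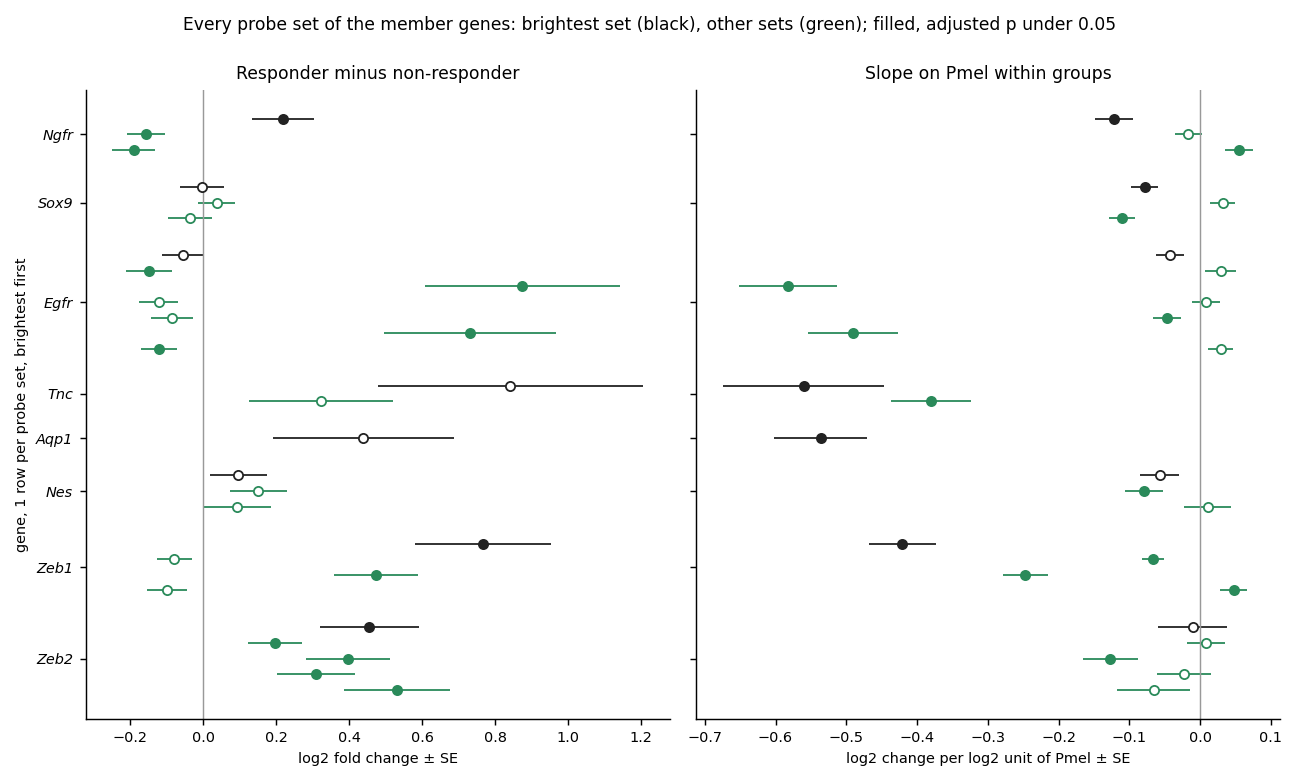
Every probe set of the members, brightest first within a gene (y axis), with the responder minus non-responder log2 fold change ± SE (left) and the slope on Pmel ± SE (right), filled where the adjusted p is under 0.05. The 2 Egfr sets at 0.88 and 0.73 lie apart from the brightest at -0.06, and the 3 Ngfr sets lie on both sides of 0.

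The genes most like each member were ranked by Pearson r over the 90 tumours after subtracting group means. The nearest to Tnc were the collagen genes Col5a2 (0.930), Col6a3 (0.925) and Col1a1 (0.920), and without the melanocyte-low tumours the same 3 still ranked among the first 3. For the other members many of the genes named next ranked lower without those tumours, as far as rank 97 for Kif26b, 81 for Agpat4, 34 for Srcap, 30 for Fam43a, 17 for Cemip2 and 16 for Hoxc6. Zeb1 was nearest to Il6st, the shared signalling receptor of the interleukin 6 family (0.904), Snx18 (0.903) and Cemip2 (0.896). Aqp1 was nearest to Rflnb (0.856), Fam43a (0.833) and Ebf1, a transcription factor of B cells and adipocytes (0.830). Nes was nearest to Pxdn, a peroxidase that crosslinks basement membrane collagen (0.778), Ssc5d (0.740) and Kif26b (0.731). Zeb2 had a different neighbourhood, with Mapre2, a microtubule end-binding protein (0.855), Srcap (0.809) and Acin1 (0.805). The likeness was lower for Sox9, with Hhipl1 (0.677), Hoxc6 (0.663) and the mesenchymal factor Twist2 (0.651), for Ngfr, with F10 (0.587), Agpat4 (0.579) and Izumo1r (0.578), and for Egfr, with Gpr4 (0.586), Zfp57 (0.566) and Fhl2 (0.550).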

How the data were processed

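Expression was measured on 90 mouse melanomas with 3 prime arrays of 45101 probe sets, from 800 ng of RNA each. Per the submitters' processing notes the authors used RMA and limma, with no version given, and the deposited values are log2. The sources used here do not say if the studies were normalized as one set. Probe sets naming 1 gene were kept (34958, against 932 with several and 9211 with none), symbols were matched by Entrez ID to RefSeq for 34754, and the brightest stood for its gene (18194 genes, 9012 with over 1 probe set).

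A single limma 3.58.1 model (R 4.3.3) covered the 90 arrays, with 1 mean for each of 12 groups and contrasts averaged with equal weights over both studies. Slopes on Pmel used the same groups. Tests were 2-sided, adjusted by Benjamini-Hochberg over all genes, threshold 0.05, and errors are limma's standard errors (SE). Correlation p-values came from 100000 permutations, within groups where group means were subtracted, adjusted over 126 relations per set of tumours. The procedure was tested on simulated data. Every tumour has its own number in its title, taken here to mark its animal, and p-values measure the spread between tumours.

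The members and lists were chosen with earlier results of these data known. Named are all members, Pmel, up to 3 genes per list and fit by p, and the 3 genes most like each member, with only some of those of the cell type lists printed. The keratinocyte and skeletal muscle lists, with 0 genes higher in responders and 1 and 0 lower, enter the plot of correlations. Alternatives were another summary of probe sets, dim genes left out, quantile normalization, a variance trend, array weights, fewer groups, covariates, and tumours left out. Added after seeing the data were the macrophage and endothelium covariates and, for the slope, 2 settings without the melanocyte-low tumours, the fibroblast covariate and each study alone. Figures were drawn with matplotlib 3.10.9 in Python 3.11.15.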

Additional observations from a re-analysis of the deposited data

Results flagged for a closer look

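Dixon's test was run for each member and Pmel in groups of 4 to 10 tumours, which only study 3 has. Of these 36 tests, made on the same few groups, 3 had a tumour far from the others, where chance gives about 1 in 20. In study 3 responders replicate 4, a melanocyte-low tumour, had Sox9 at 6.54, with the nearest other responder at 5.89. The same tumour had Tnc at 12.01, with the nearest at 8.97. In study 3 IgG tumours replicate 8 had Zeb1 at 6.31, with the nearest at 6.99. No member passed in 24 tests of whether its effect differed. They compared the responder against non-responder difference between studies, and the slope on Pmel between studies and between anti-PD-L1 and control tumours.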

How the results depend on the processing

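Over all alternatives, 148 counts of members called stayed within 1.5 times the count reported and 48 did not. Of 1540 single values 183 changed sign, and in 13 of these a call was involved. For responder against non-responder, 2 members passed with the mean of all probe sets, 0 with the fibroblast or macrophage covariate and 1 with the endothelium covariate. Within study 2 the count was 1 with the mean of all probe sets, 3 with array weights and 2 without the 5 melanocyte-low tumours. Within study 3 it was 1 with only the compared groups or without those tumours, and 0 with each of the 3 covariates. For responder against IgG it was 0 with the mean of all probe sets, the fibroblast or the macrophage covariate, and 1 with dim genes left out, without those tumours or with the endothelium covariate. For relapse against non-responder it was 1 with the mean of all probe sets, quantile normalization or the endothelium covariate, 5 with array weights, and 0 with the fibroblast or macrophage covariate. It ran from 0 to 3 with each relapse tumour left out. For relapse against IgG it was 3 with array weights and 2 with only the compared groups or without the 5. For stabilization against non-responder it was 0 without the 5 and with each covariate, and ran from 0 to 7 with 1 stabilization tumour left out. Against responders it was 6 with array weights and 0 to 1 with 1 tumour left out. IgG against PBS had 1 with array weights. For array weights and for 1 tumour left out, the share of all genes is not given here. No conclusion about the members is drawn from those counts. The slope on Pmel gave 3 members with dim genes left out or the fibroblast covariate, 2 without the 5, in study 2 without them, or with the macrophage or endothelium covariate, and 0 in control tumours alone, in study 3 without the 5 and with the fibroblast covariate without the 5.

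With the mean of all probe sets Ngfr was -0.043 for responder and -0.011 for stabilization against non-responder. Tnc for responder against non-responder was -0.36 with the fibroblast and -0.57 with the macrophage covariate. Without the 5, stabilization against non-responder was -0.24 for Ngfr and -0.20 for Aqp1, and Aqp1 was -0.0098 with the endothelium covariate. Zeb1 for responder against IgG was -0.078 with the macrophage covariate. On Pmel the slope was 0.0099 for Zeb1 in control tumours, 0.050 and 0.12 for Tnc with the macrophage and endothelium covariates, and 0.11 for Ngfr and 0.37 for Tnc in study 3 without the 5. The cause of these changes was not tested. The number of all genes called ran from 0 to 10731 for responder against non-responder (9319 as reported). For the slope on Pmel it ran from 7 to 12443 (9949). It reached 7746 within study 2 (478), 10626 for relapse against non-responder (4370) and 8799 for relapse against IgG (198). It reached 13957 for stabilization against non-responder (5688), 11512 for stabilization against responder (20) and 4905 for IgG against PBS (1). The setting that gave each highest number is not given here. The filter on dim genes removed Ngfr and Sox9, which have no value there, and array weights did not fully converge in some fits. No paired analysis was possible because no label links tumours to each other. Each title has its own number, and replicates are numbered only in the order listed.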
